A study of Homo sapiens with 19 samples.

Results

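The 10 genes described here encode G1 cyclins, cyclin-dependent kinases (CDKs), CDK inhibitors and the retinoblastoma protein: CCND1, CCND3, CCNE1, CCNE2, CDK2, CDK4, CDK6, CDKN1B, CDKN2C and RB1. They were chosen by name, and each matched 1 Ensembl gene ID in every count table, so 10 of 10 were found among 60612 gene IDs for HCT116, 63086 for WiDr and 82890 for WiDr read on an Oxford Nanopore Technologies (ONT) sequencer. HCT116 and WiDr are established human colorectal carcinoma cell lines. HCT116 cells were treated for 96 h with 10 µM GSK025 (GSK3235025), which inhibits PRMT5, with 5 µM GSK715 (GSK3368715), which the labels name a PRMT1 inhibitor, or with DMSO, the vehicle, and 3 short-read libraries were made per group. WiDr cells received 5 µM GSK715 or DMSO for 96 h, with 3 short-read libraries and 2 ONT full-length cDNA libraries per group. GSK025 was not given to WiDr in the samples used here, so its values come from 1 line, and nothing in the sources used here says whether replicates were separate cultures.

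PRMT5 and PRMT1 are protein arginine methyltransferases. In G1, D-type cyclins bind CDK4 or CDK6 and E-type cyclins bind CDK2, and these kinases phosphorylate the retinoblastoma protein. That phosphorylation releases E2F transcription factors, which switch on genes for DNA replication, while CDK inhibitors such as p27 and p18 hold the kinases in check. Colorectal carcinoma cells receive strong Wnt and growth factor signals, both of which are known to act on CCND1 and MYC.

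The short-read totals were 64558688 to 66915779 counts per HCT116 library and 59612948 to 82390261 per WiDr library, and the ONT totals were 1449574 to 1667667. Levels below are CPM, read counts relative to library size after trimmed-mean (TMM) scaling, and changes are log2 fold changes (log2FC) with a standard error (SE) from edgeR's quasi-likelihood test. A gene passed where the Benjamini-Hochberg adjusted p over all genes tested was under 0.05. All 10 epithelial markers of a fixed list had reads in at least 1 library of every group, with summed levels of 4448 to 23372 CPM per library. KRT8, KRT18 and KRT19 made up most of that sum. Some markers were near 0. In HCT116 with DMSO the group means were 0.0339 CPM for LGALS4, 0.117 for VIL1 and 0.165 for CEACAM5. CDX2 was at 0.547 CPM in WiDr short reads with DMSO. Of 13 stromal, endothelial and immune markers, 1 to 6 were at 0 in each group, and their sum was 30.3 to 117 CPM. PTPRC was at 0 in every HCT116 group and COL3A1 in every WiDr group. Other markers of the list were not. In HCT116, CD68 had group means of 22.7 CPM with GSK025, 79.7 with GSK715 and 37.7 with DMSO. In the same order ACTA2 had 38.4, 5.59 and 9.76 CPM there, and COL1A1 15.4, 23.6 and 17 CPM. In WiDr short reads CD68 had 24.1 CPM with GSK715 and 9.83 with DMSO, and CD14 had 20.9 and 7.95 CPM. In HCT116 the sum of the 13 markers was 107 to 117 CPM with GSK715 and 76.0 to 84.9 CPM with GSK025. With DMSO it was 65.3 to 68.3 CPM there. The sum in WiDr short reads was 59.9 to 67.6 CPM with GSK715 and 30.3 to 31.7 CPM with DMSO. In ONT it was 43.6 to 45.8 CPM with GSK715 and 46.1 to 48.0 CPM with DMSO. Its part in the results was not tested.

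Both compounds changed the mRNA of most of these genes, in both directions. In HCT116 with GSK025, 7 of 10 passed against DMSO (4 higher, 3 lower), beside 44.1% of all 19751 genes tested (22% higher, 22.1% lower). With GSK715 in HCT116, 9 of 10 passed (5 higher, 4 lower), beside 46.4% of all genes (22.1% higher, 24.2% lower). In WiDr short reads, 9 of 10 passed with GSK715 (4 higher, 5 lower), beside 65.8% of 19340 genes (33.6% higher, 32.2% lower). The ONT libraries gave 1 passing gene, CCND1, among 9 tested, beside 8.8% of 15877 genes (4.29% higher, 4.51% lower), and CDKN2C was too low there to be tested. The members' median log2FC was 0.0066 with GSK025 and 0.20 with GSK715 in HCT116, -0.11 in WiDr short reads and -0.038 in ONT, against medians of all genes of -0.018, -0.052, 0.054 and 0.0032 in the same order. The plot of fold changes shows these responses gene by gene.

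**Figure D1:**
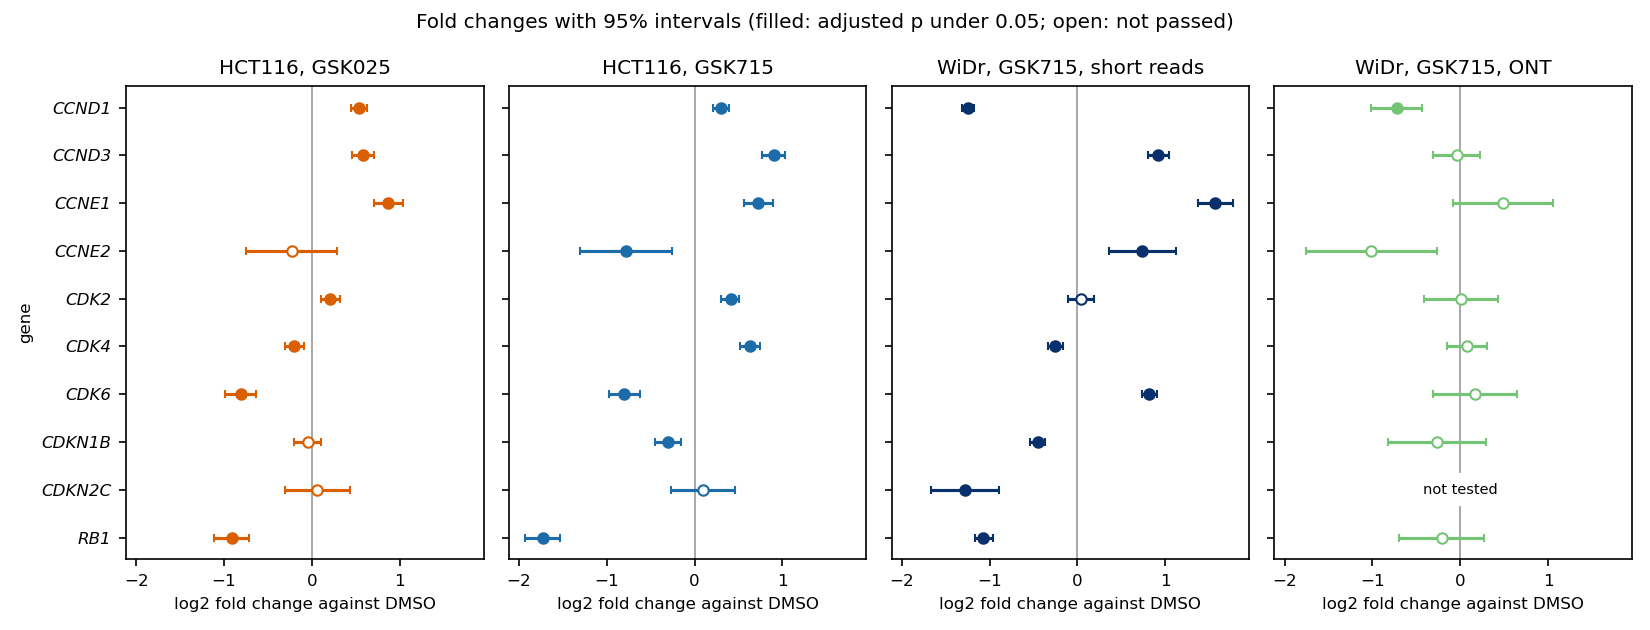
Log2 fold changes against DMSO (x axis) of the 10 genes (y axis), 1 panel per comparison; bars are 95% intervals, and filled points passed at an adjusted p under 0.05. RB1 was lower in all 3 short-read panels, CCND3 and CCNE1 were higher in all 3, and CCND1 and CDK6 lay on opposite sides of 0 in HCT116 and WiDr with GSK715.

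Cyclin D1 (CCND1), the partner of CDK4 and CDK6 that growth signals induce, lies on chromosome 11 (GRCh38, chr11:69641087-69654474, plus strand). It rose in HCT116 with both compounds and fell in WiDr. Its HCT116 levels were 635, 632 and 595 CPM with GSK025, 544, 537 and 497 CPM with GSK715, and 421, 429 and 429 CPM with DMSO. Every GSK025 library was above every GSK715 library, and both groups were above DMSO. The log2FC was 0.54 with GSK025 (SE 0.041, edgeR adjusted p = 3.2e-07) and 0.30 with GSK715 (SE 0.041, adjusted p = 4.1e-05). In WiDr short reads CCND1 had 103, 99.4 and 103 CPM with GSK715, against 239, 245 and 243 CPM with DMSO. The groups lay far apart, with a log2FC of -1.25 (SE 0.030, edgeR adjusted p = 3.8e-10), a 2.38-fold lower level. CCND1 shares 10.3% of its exonic bases with LTO1 on the opposite strand, and the strand setting of the counting is not given in the sources used here. LTO1 itself was at 21.9 ± 0.320 CPM with GSK715 and 42.8 ± 2.92 CPM with DMSO in WiDr (SD, n = 3 each).

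Cyclin D3 (CCND3, chr6:41934933-42050357, minus strand), another activator of CDK4 and CDK6, rose in both lines. HCT116 libraries held 66.8, 68.1 and 63.4 CPM with GSK025, 84.2, 77.4 and 85.5 CPM with GSK715, and 44.7, 46.3 and 41.4 CPM with DMSO. No groups overlapped, and GSK715 gave the highest level. The log2FC was 0.58 with GSK025 (SE 0.059, edgeR adjusted p = 3.5e-06) and 0.90 with GSK715 (SE 0.059, adjusted p = 6.6e-08). WiDr short reads gave 66.7, 63.4 and 66.6 CPM with GSK715, against 34.2, 37.1 and 32.8 CPM with DMSO. The log2FC there was 0.92 (SE 0.053, edgeR adjusted p = 1.6e-07), again with no overlap. The other D-type cyclin, CCND2, had at most 0.292 CPM in any library and took no part in the comparisons in HCT116.

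Cyclin E1 (CCNE1, chr19:29811898-29824308, plus strand), which activates CDK2 at the entry to S phase, rose in all 3 short-read comparisons. In HCT116 it had 30.1, 34.1 and 30.3 CPM with GSK025, 29.5, 27.4 and 28.5 CPM with GSK715, and 17.8, 16.2 and 17.7 CPM with DMSO. All treated libraries were above all DMSO libraries, with a log2FC of 0.87 for GSK025 (SE 0.076, edgeR adjusted p = 1.1e-06) and 0.72 for GSK715 (SE 0.076, adjusted p = 4.3e-06). WiDr libraries had 27.7, 27.7 and 26.5 CPM with GSK715, against 10.0, 8.09 and 9.50 CPM with DMSO. This 2.97-fold rise (log2FC 1.57, SE 0.088, edgeR adjusted p = 1.3e-07) was among the larger ones of the 10 genes.

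Cyclin E2 (CCNE2, chromosome 8, minus strand), the other CDK2-activating E cyclin, was the lowest of the 4 cyclins per kilobase in every short-read group. HCT116 had 3.42, 2.32 and 2.24 CPM with GSK025, 1.90, 1.63 and 1.91 CPM with GSK715, and 2.65, 3.02 and 3.69 CPM with DMSO. The GSK025 libraries overlapped those with DMSO (log2FC -0.23, 95% interval -0.75 to 0.29, edgeR adjusted p = 0.488). The GSK715 libraries all lay below DMSO (log2FC -0.78, SE 0.24, edgeR adjusted p = 0.0176), but the gene no longer passed without DMSO replicate 3 (adjusted p = 0.0814) or without GSK715 replicate 2 (adjusted p = 0.0615). In WiDr short reads the levels were 4.31, 3.80 and 4.02 CPM with GSK715, against 2.18, 2.67 and 2.42 CPM with DMSO, a rise without overlap (log2FC 0.74, SE 0.17, edgeR adjusted p = 0.0032). INTS8, on the opposite strand, shares 37% of the exonic bases of CCNE2 and was at 9.34 CPM per kb against 0.709 for CCNE2 in HCT116 with DMSO, so the CCNE2 counts are uncertain. INTS8 fell in all 3 short-read comparisons, to 57.8 ± 5.94 CPM with GSK715 against 73.5 ± 1.47 CPM with DMSO in HCT116, and to 53.7 ± 2.41 CPM with GSK715 against 66.1 ± 5.08 CPM with DMSO in WiDr (SD, n = 3 each).

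**Figure D2:**
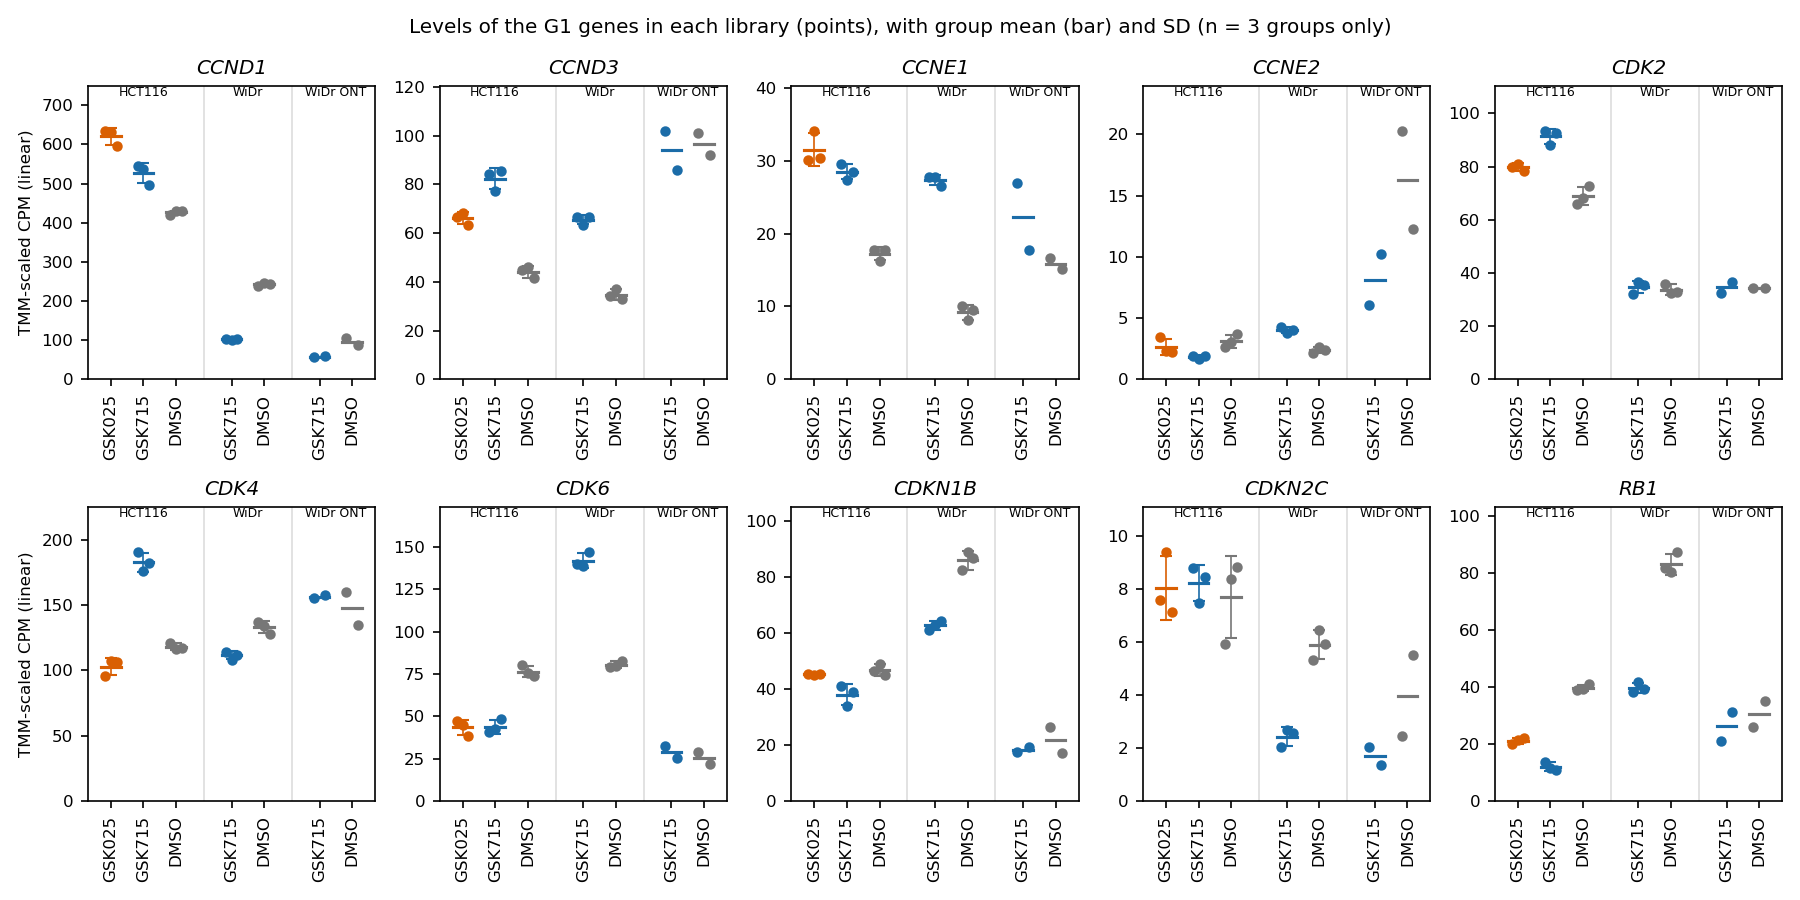
TMM-scaled CPM (y axis, linear) of each gene in every library (points) by group (x axis), with the group mean as a bar and the SD where n = 3; the 3 tables were scaled separately. CCND1 in HCT116 ranged from 595 to 635 CPM with GSK025 and from 421 to 429 CPM with DMSO, while in WiDr short reads it was 99.4 to 103 CPM with GSK715 and 239 to 245 CPM with DMSO.

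Cyclin-dependent kinase 4 (CDK4, chr12:57747727-57756013, minus strand) and its close relative CDK6 (chr7:92604921-92836594, minus strand) bind the same D cyclins, and with GSK715 their mRNAs moved in opposite directions in the short reads of each line. The sequences upstream of their RefSeq starts (GRCh38.p14, minus strand) are shown because this pair diverged, with each E-box CACGTG in capitals. MYC, a known regulator of growth genes, binds this E-box. The windows are chr12:57752311-57752560 for CDK4 and chr7:92836574-92836823 for CDK6, each of 250 bases and read 5′ to 3′ towards the start.
CDK4: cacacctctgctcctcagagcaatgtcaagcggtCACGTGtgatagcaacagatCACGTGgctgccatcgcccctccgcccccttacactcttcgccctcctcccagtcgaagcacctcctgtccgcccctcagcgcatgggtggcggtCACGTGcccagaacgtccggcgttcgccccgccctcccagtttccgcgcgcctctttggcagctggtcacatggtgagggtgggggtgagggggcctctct
CDK6: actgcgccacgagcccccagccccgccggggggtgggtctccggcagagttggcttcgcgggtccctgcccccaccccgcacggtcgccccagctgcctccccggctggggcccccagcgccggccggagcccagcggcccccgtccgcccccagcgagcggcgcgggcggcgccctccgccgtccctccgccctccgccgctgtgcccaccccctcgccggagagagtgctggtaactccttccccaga
The CDK4 window holds 3 E-boxes, at -216, -196 and -101 from the start, and the CDK6 window holds none. CACGTG reads the same on both strands, and 6.34% of the 35116 RefSeq windows of this length hold at least 1 copy. At least 3 copies occur in 28 windows. Of the 10 genes, 7 matched windows, 12 in all, and CCND1, CCNE2 and CDK2 matched none. Among these 12 windows a further CACGTG was present at 2 of the 3 starts of CDKN2C, and the E2F words TTTCCCGC, TTTGGCGC, TTTCGCGC and TTTGCCGC were absent on both strands. The only RB1 window, chr13:48476200-48476449, lies inside the gene, which begins at 48303726, so the sequence before its first start was not searched. The same holds for CDK4, whose first start on the minus strand is at 57756013, and for CCND3 and CDKN1B. The window of CCNE1 and 1 window of CDK6 overlap their gene in part. At least 1 of the E2F words occurs in 2.79% of all windows. The letters do not show binding.

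CDK4 rose in HCT116 with GSK715 and fell in HCT116 with GSK025 and in WiDr short reads with GSK715. Its HCT116 levels were 95.6, 107 and 106 CPM with GSK025, 190.4, 176 and 182 CPM with GSK715, and 121, 116 and 117 CPM with DMSO. The GSK025 libraries were all below DMSO and the GSK715 libraries all above. With GSK025 the log2FC was -0.20 (SE 0.051, edgeR adjusted p = 0.0062), and it no longer passed once an offset for exonic length was added (log2FC -0.09, adjusted p = 0.181). With GSK715 it was 0.63 (SE 0.051, edgeR adjusted p = 4.1e-07). WiDr short reads held 114, 108 and 112 CPM with GSK715, against 137, 134 and 128 CPM with DMSO (log2FC -0.25, SE 0.037, edgeR adjusted p = 0.00015). TSPAN31 on the opposite strand shares 43.2% of the exonic bases of CDK4, so the counts of both are uncertain without the strand setting. TSPAN31 fell in all 3 short-read comparisons. In HCT116 it was at 12.8 ± 0.545 CPM with GSK025, 20.2 ± 1.48 CPM with GSK715 and 23.6 ± 1.37 CPM with DMSO (SD, n = 3 each). Its log2FC was -0.88 with GSK025 (edgeR adjusted p = 2.9e-06), where CDK4 fell, and -0.23 with GSK715 (adjusted p = 0.046), where CDK4 rose. The short reads of WiDr held 22.5 to 25.6 CPM of TSPAN31 with GSK715 and 26.8 to 34.1 CPM with DMSO (n = 3 each; log2FC -0.32, edgeR adjusted p = 0.0111), where CDK4 fell. The part of the shared bases in the lower CDK4 counts was not tested.

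CDK6 fell in HCT116 with both compounds and rose in WiDr. HCT116 had 47.2, 44.9 and 38.5 CPM with GSK025, 40.5, 42.5 and 48.6 CPM with GSK715, and 80.1, 75.5 and 73.8 CPM with DMSO. The treated groups overlapped each other and lay below DMSO, with a log2FC of -0.81 for GSK025 (SE 0.083, edgeR adjusted p = 3.9e-06) and -0.80 for GSK715 (SE 0.083, adjusted p = 3.8e-06). With the offset for exonic length these became -0.41 and -0.42, still past the threshold; CDK6 has the longest summed exons of the 10 genes, at 12.3 kb. In WiDr short reads CDK6 had 140.0, 139 and 147 CPM with GSK715, against 79.0, 79.8 and 82.9 CPM with DMSO. The groups did not overlap (log2FC 0.82, SE 0.036, edgeR adjusted p = 2e-08).

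CDK2 (chr12:55966769-55972784, plus strand), the partner of E cyclins, rose in HCT116, 1.16-fold with GSK025 and 1.33-fold with GSK715, and did not pass in WiDr. In HCT116 it had 79.98, 81.1 and 78.4 CPM with GSK025, 93.5, 88.3 and 92.5 CPM with GSK715, and 65.8, 68.2 and 72.7 CPM with DMSO. The groups were ordered without overlap, with a log2FC of 0.21 for GSK025 (SE 0.049, edgeR adjusted p = 0.0029) and 0.41 for GSK715 (SE 0.049, adjusted p = 1.4e-05). WiDr short reads overlapped, at 32.2, 36.5 and 35.3 CPM with GSK715 and 36.0, 32.3 and 32.9 CPM with DMSO (log2FC 0.04, 95% interval -0.11 to 0.19, edgeR adjusted p = 0.627). An antisense gene shares 14.5% of its exonic bases.

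The inhibitor p27 (CDKN1B, chr12:12715058-12722371, plus strand), which restrains CDK2 complexes, fell with GSK715 in both lines. HCT116 libraries had 45.4, 45.0 and 45.3 CPM with GSK025, 40.9, 33.9 and 39.0 CPM with GSK715, and 46.2, 49.0 and 45.0 CPM with DMSO. The GSK025 and DMSO libraries overlapped (log2FC -0.05, 95% interval -0.20 to 0.10, edgeR adjusted p = 0.647). With GSK715 the log2FC was -0.30 (SE 0.070, edgeR adjusted p = 0.0031), which the exonic length offset moved to -0.16 (adjusted p = 0.075). In WiDr short reads CDKN1B had 61.0, 62.8 and 64.2 CPM with GSK715, against 82.2, 88.7 and 86.7 CPM with DMSO, without overlap (log2FC -0.45, SE 0.038, edgeR adjusted p = 2.8e-06).

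The inhibitor p18 (CDKN2C, chr1:50960745-50974633, plus strand), which binds CDK4 and CDK6, fell in WiDr. WiDr short reads had 2.02, 2.68 and 2.57 CPM with GSK715, against 5.33, 6.45 and 5.91 CPM with DMSO (log2FC -1.28, SE 0.17, edgeR adjusted p = 9.7e-05). HCT116 libraries ranged from 7.11 to 9.38 CPM with GSK025, from 7.45 to 8.77 CPM with GSK715 and from 5.92 to 8.81 CPM with DMSO. All 3 groups overlapped there, with 95% intervals of the log2FC of -0.31 to 0.43 for GSK025 and -0.27 to 0.46 for GSK715 (edgeR adjusted p = 0.819 and 0.689).

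RB1 (chr13:48303726-48599436, plus strand), which encodes the retinoblastoma protein, fell in all 3 short-read comparisons. In HCT116 it had 19.9, 21.5 and 21.9 CPM with GSK025, 13.8, 11.5 and 10.7 CPM with GSK715, and 38.8, 39.4 and 40.9 CPM with DMSO. No groups overlapped, and GSK715 gave the lowest level. The log2FC was -0.91 with GSK025 (SE 0.091, edgeR adjusted p = 3.2e-06) and -1.73 with GSK715 (SE 0.094, adjusted p = 1.4e-08). WiDr short reads had 38.3, 41.6 and 39.1 CPM with GSK715, against 81.6, 80.2 and 87.2 CPM with DMSO (log2FC -1.07, SE 0.047, edgeR adjusted p = 2.1e-08).

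Levels of different genes were compared per kilobase of summed exons, in short reads only. CCND1 was the highest of the 10 genes in HCT116 in every group, at 128 ± 4.60 CPM per kb with GSK025, 109 ± 5.25 with GSK715 and 88.3 ± 0.947 with DMSO (SD, n = 3 each). In WiDr it came after CDK4 and CDKN1B with GSK715, at 21.1 ± 0.459 CPM per kb, and first with DMSO, at 50.2 ± 0.624. CCNE2 was the lowest in every HCT116 group and in WiDr with DMSO, while CDKN2C was the lowest in WiDr with GSK715. RB1 was at 1.86 ± 0.247 CPM per kb in HCT116 with GSK715, below CDKN2C at 2.48 ± 0.208, whereas with DMSO RB1 was at 6.15 ± 0.167 and CDKN2C at 2.32 ± 0.469. Neighbours whose libraries overlapped were CDK6 and RB1 with GSK025, CCND3 and CDKN1B with GSK715, and with DMSO CDK2 and CDKN1B, CCNE1 and CDK6, and CDK6 and RB1, all in HCT116. In WiDr they were CDK6 and CCND3 with GSK715.

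Within a library, CCND1 exceeded CCND3 per kilobase 1.87 ± 0.0123 times in WiDr with GSK715 and 8.42 ± 0.474 times with DMSO. In HCT116 this ratio was 11.3 ± 0.129 with GSK025, 7.70 ± 0.680 with GSK715 and 11.6 ± 0.720 with DMSO. The GSK025 and DMSO libraries overlapped, and the GSK715 libraries lay below both. The ratio of CDK4 to CDK6 was 9.23 ± 1.39 with GSK025, 16.2 ± 1.87 with GSK715 and 5.97 ± 0.132 with DMSO in HCT116, and 3.04 ± 0.115 with GSK715 and 6.39 ± 0.363 with DMSO in WiDr (SD, n = 3 each). With GSK715 it was therefore higher than with DMSO in HCT116 and lower in WiDr, without overlap in either line. The summed exons of CDK4 are 3.17 kb and those of CDK6 12.3 kb. Across genes in HCT116, log2FC was lower for longer exons (Spearman rho -0.301 with GSK025 and -0.293 with GSK715). CDK4 also shares 43.2% of its exonic bases with TSPAN31. The part of length and of shared bases in this ratio was not tested. CCNE1 exceeded CCNE2 by 21.3 ± 5.38 times with GSK025, 27.2 ± 1.68 with GSK715 and 9.70 ± 1.68 with DMSO in HCT116, and by 11.7 ± 0.781 with GSK715 and 6.64 ± 1.36 with DMSO in WiDr.

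**Figure D3:**
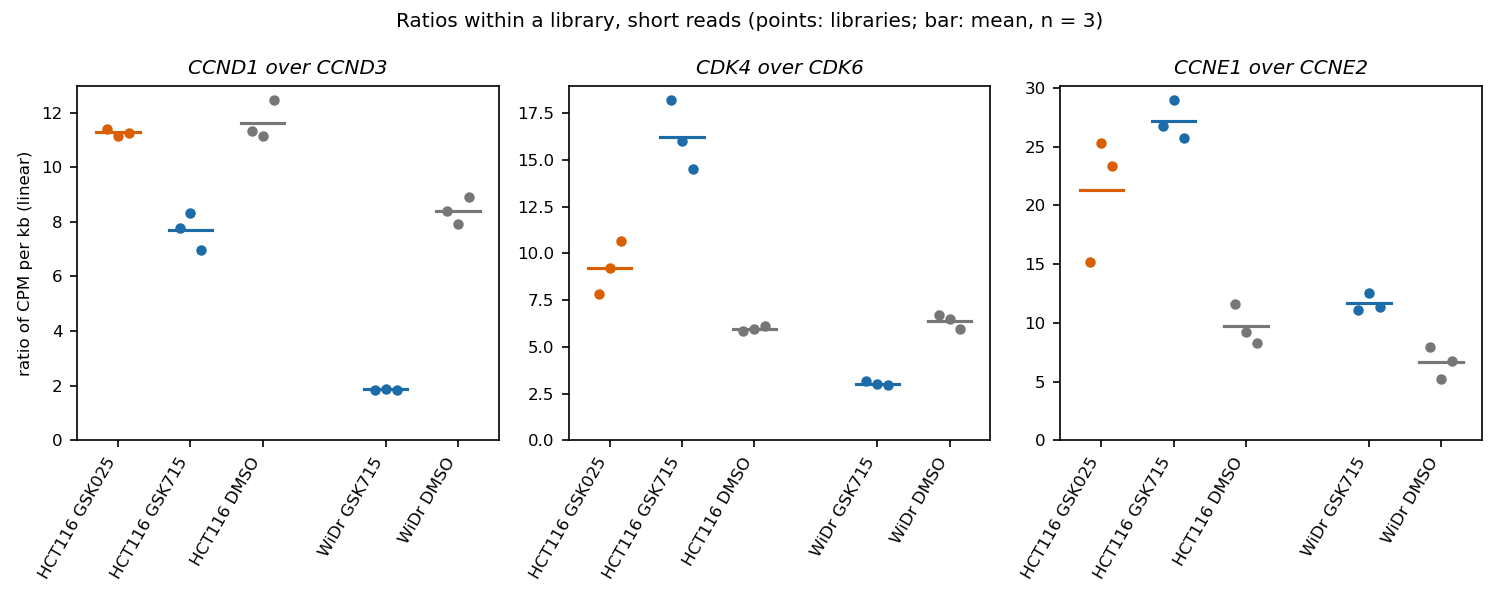
Ratios of CPM per kb of exons (y axis, linear) within each short-read library (points; bars are means, n = 3) for cyclins D1 and D3, kinases CDK4 and CDK6, and cyclins E1 and E2, by group (x axis). The ratio of CDK4 to CDK6 was 14.5 to 18.2 with GSK715 and 5.84 to 6.11 with DMSO in HCT116, but 2.94 to 3.16 with GSK715 and 5.99 to 6.70 with DMSO in WiDr.

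GSK715 at 5 µM and GSK025 at 10 µM were compared directly within HCT116, which sets the compounds and their doses side by side. The DMSO levels do not enter this difference, but the DMSO libraries share its scaling and its estimate of the spread. Of the 10 genes, 6 passed (3 higher with GSK715, 3 lower), beside 44.3% of all genes (21.8% higher, 22.5% lower). CDK4 was 1.78-fold higher with GSK715 (log2FC 0.83, SE 0.051, edgeR adjusted p = 4.8e-08), and CCND3 and CDK2 were higher by 0.32 and 0.20. RB1 was 1.76-fold lower (log2FC -0.82, SE 0.093, edgeR adjusted p = 1.1e-05), and CCND1 and CDKN1B had log2FCs of -0.24 and -0.25. For CDK6 the log2FC was 0.01 with a 95% interval of -0.17 to 0.19, for CDKN2C 0.04 (-0.33 to 0.40), for CCNE1 -0.15 (-0.31 to 0.02) and for CCNE2 -0.55 (-1.08 to -0.03; edgeR adjusted p = 0.0848). When libraries were scaled by their totals alone, CCNE1 (log2FC -0.24, adjusted p = 0.0174) and CCNE2 (-0.65, 0.0466) passed, CDK2 did not (0.10, 0.106), and the split over all genes was 3474 higher and 5406 lower in place of 4302 and 4444.

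The response to GSK715 differed between the lines for 8 of the 10 genes in a joint fit of both short-read tables (4 with a higher log2FC in WiDr, 4 lower), beside 46.7% of 21791 genes (23.2% higher, 23.5% lower). The difference of log2FC, WiDr minus HCT116, was 1.55 for CDK6 (SE 0.087, edgeR adjusted p = 8.3e-09), 1.45 for CCNE2 (SE 0.29, adjusted p = 0.00098), 0.78 for CCNE1 and 0.59 for RB1. It was -1.62 for CCND1 (SE 0.047, edgeR adjusted p = 1.7e-11), -1.45 for CDKN2C (SE 0.26, adjusted p = 0.00041), -0.96 for CDK4 and -0.44 for CDK2. CCND3 had -0.05, with a 95% interval of -0.23 to 0.13, and CDKN1B had -0.22 (-0.42 to -0.03; edgeR adjusted p = 0.0562). With the exonic length offset both passed, at -0.29 for CCND3 (adjusted p = 0.0135) and -0.67 for CDKN1B (adjusted p = 2.3e-05), and CDKN1B also passed without HCT116 GSK715 replicate 2 (-0.26, adjusted p = 0.0091). For CCNE1 the difference was 0.29 with the exonic length offset (adjusted p = 0.0585), and for CDK2 -0.08 with library totals as the scale (adjusted p = 0.462). Library totals also gave 0.30 for CCND3 (adjusted p = 0.0084) and moved the median of all genes to 0.47, compared with 0.12 under TMM scaling. Relative to that median the CCND3 value was thus below 0 under both scales. Each line is 1 table, and line and table cannot be told apart.

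ONT full-length cDNA of WiDr gave few reads per gene. CCND1 had 57.2 and 59.2 CPM with GSK715 (85 and 87 reads), against 105 and 87.1 CPM with DMSO (170 and 127 reads). The groups did not overlap, and the log2FC was -0.72 (SE 0.15, edgeR adjusted p = 0.00055). It did not pass without a count filter (adjusted p = 0.0931), with DESeq2 (0.116) or without ONT DMSO replicate 1 (0.109). CCNE2 had 6.06 and 10.2 CPM with GSK715, against 20.3 and 12.3 CPM with DMSO, from 9 to 33 reads (log2FC -1.02, 95% interval -1.76 to -0.27, edgeR adjusted p = 0.0783). CDKN2C had 3 and 2 reads with GSK715 and 4 and 8 with DMSO.

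CCND3, which rose in WiDr short reads, had 102 and 85.8 CPM with GSK715 and 101 and 91.9 CPM with DMSO in ONT (log2FC -0.04, 95% interval -0.31 to 0.23). RB1 had 20.9 and 31.3 CPM with GSK715 and 25.8 and 35.0 CPM with DMSO (95% interval -0.70 to 0.27), and CDK6 had 32.3 and 25.2 CPM with GSK715 and 28.9 and 21.9 CPM with DMSO (-0.31 to 0.65). These groups overlapped. CDK4 had 155 and 158 CPM with GSK715 and 160.0 and 135 CPM with DMSO, CDK2 32.3 and 36.8 CPM with GSK715 and 34.5 and 34.3 CPM with DMSO, and CDKN1B 17.5 and 19.1 CPM with GSK715 and 26.5 and 17.1 CPM with DMSO, also with overlap. CCNE1 had 26.9 and 17.7 CPM with GSK715, above the 16.6 and 15.1 CPM with DMSO, but did not pass (log2FC 0.49, 95% interval -0.08 to 1.06, edgeR adjusted p = 0.335). In a joint fit the ONT response differed from the short-read response for 7 of the 10 genes (3 with a higher log2FC in ONT, 4 lower), beside 19.9% of 24055 genes (11.2% higher, 8.69% lower). The difference, ONT minus short reads, was -0.91 for CCND3 (SE 0.13, edgeR adjusted p = 0.00025), -1.03 for CCNE1 (SE 0.27, adjusted p = 0.0161), -1.70 for CCNE2 (SE 0.41, adjusted p = 0.0098) and -0.60 for CDK6 (SE 0.18, adjusted p = 0.0464). It was 0.58 for CCND1, 0.39 for CDK4 and 0.90 for RB1 (edgeR adjusted p = 0.0023, 0.0106 and 0.015). Both methods share 1 estimate of the spread in this fit. The SE of the difference was 0.11 for CCND1 and 0.18 for CDK6, below the 0.15 and 0.24 of ONT alone. For CCNE2 it was 0.41, against 0.37 in ONT alone. The adjusted p values of this fit may therefore be too small. Leaving out 1 library at a time gave 3 to 7 passing genes, with CCND1 and CCND3 passing each time. CDK6 did not pass without a count filter (adjusted p = 0.0736), without ONT DMSO replicate 1 (0.507), without ONT GSK715 replicate 2 (0.289) or without any 1 of the 3 short-read GSK715 libraries (0.0514 to 0.0636). CCNE1 did not pass with the exonic length offset (adjusted p = 0.0911), without either ONT DMSO library (0.108 and 0.0505) or without ONT GSK715 replicate 2 (0.072). CCNE2 was lost without ONT DMSO replicate 1 (0.0827) or ONT GSK715 replicate 1 (0.0572), and RB1 without ONT DMSO replicate 1 (0.109) or ONT GSK715 replicate 2 (0.241). CDK4 was lost without ONT DMSO replicate 2 (0.0985) or either ONT GSK715 library (0.052 and 0.0754). Scaling by library totals left 4 genes, all lower in ONT, with CCND1, CDK4 and RB1 lost, beside 4878 of all genes. Among 10 markers of proliferation and mitosis, 9 also differed, all higher in ONT, with a median difference of 1.23. Whether both methods used the same RNA is not given in the sources used here.

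Other genes of the pathway were taken from fixed lists. Genes said to rise or fall in these lists are those that passed. Of all genes tested, 44.1% passed with GSK025 and 46.4% with GSK715 in HCT116. In WiDr 65.8% passed in short reads and 8.8% in ONT. The counts in this list and those that follow are to be read beside these shares. Of 23 other G1/S regulators tested in HCT116, 7 rose and 7 fell with GSK025, and 8 rose and 7 fell with GSK715. In WiDr short reads 5 rose and 16 fell among 24 (median log2FC -0.54). CDKN1A, the p53-induced inhibitor p21, rose in HCT116 to 918 ± 22.3 CPM with GSK025 and 374 ± 19.7 CPM with GSK715, against 271 ± 12.7 CPM with DMSO. In WiDr it fell, to 48.6 ± 1.30 CPM with GSK715 against 179 ± 1.37 CPM with DMSO (SD, n = 3 each; log2FC -1.88, edgeR adjusted p = 4.5e-11), and also in ONT (log2FC -1.24, adjusted p = 9.1e-05). CDKN1C, which encodes p57, rose with GSK025 (log2FC 0.37) and GSK715 (1.08) in HCT116 and with GSK715 in WiDr (3.13), where it had 10.1 ± 0.768 CPM with GSK715 and 1.15 ± 0.118 CPM with DMSO. RBL2, a relative of RB1, had a log2FC of -1.17 with GSK025 and -0.43 with GSK715 in HCT116 and 0.43 in WiDr, all of which passed. E2F5, a partner of the RB1 relatives, fell by 2.36 on the log2 scale in HCT116 with GSK715 and by 1.01 in WiDr. With GSK025 in HCT116 it was at 10.2 ± 1.38 CPM, against 13.9 ± 0.996 CPM with DMSO.

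Among 12 genes that feed into D cyclin transcription, 11 were tested. With GSK025 6 rose and 3 fell, and with GSK715 5 rose and 4 fell in HCT116, while in WiDr 1 rose and 8 fell (median log2FC -0.81). FOSL1, an AP-1 subunit, rose in HCT116 with GSK025 (log2FC 0.50) and GSK715 (0.69). In WiDr it fell to 6.98 ± 0.111 CPM with GSK715, against 80.4 ± 1.78 CPM with DMSO (SD, n = 3 each; log2FC -3.53, edgeR adjusted p = 1.5e-11), and it also fell in ONT (log2FC -1.70, adjusted p = 5.4e-05). MYC had 94.2 ± 1.24 CPM with GSK715 and 385 ± 12.1 CPM with DMSO in WiDr short reads (log2FC -2.03, edgeR adjusted p = 3.2e-11), but 36.8 and 51.2 CPM with GSK715 and 43.7 and 60.3 CPM with DMSO in ONT, where the groups overlapped. In HCT116 MYC ranged from 273 to 292 CPM with GSK025, from 232 to 254 CPM with GSK715 and from 270 to 285 CPM with DMSO. With GSK715 MYC was thus below DMSO in HCT116, where CDK4 rose, and in WiDr short reads, where CDK4 fell. The part of MYC in the CDK4 changes was not tested. The AP-1 subunit JUN rose with GSK715 in HCT116 (log2FC 2.15) and in WiDr short reads (0.75), and fell in HCT116 with GSK025 (-0.18). In ONT it was at 33.3 to 33.7 CPM with GSK715 and 42.5 to 50.4 CPM with DMSO, and did not pass.

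Of 15 E2F targets of S phase entry, 7 rose and 3 fell with GSK025, 8 rose and 4 fell with GSK715 in HCT116, and 5 rose and 7 fell in WiDr short reads. CDT1, a replication licensing factor, rose in all 3 (log2FC 0.63, 0.84 and 1.60), while RRM2, a subunit of ribonucleotide reductase, fell in all 3 (-0.69, -0.19 and -1.39). Of 12 ubiquitin ligase parts that act on G1 cyclins and p27, 5 rose and 3 fell with GSK025, 4 rose and 5 fell with GSK715 in HCT116, and 5 rose and 5 fell in WiDr. SKP2, which marks p27 for degradation, rose in WiDr short reads (log2FC 1.10, edgeR adjusted p = 1.2e-06) and fell in ONT (-0.83, adjusted p = 0.0306). In HCT116 SKP2 rose with GSK025 (0.38, edgeR adjusted p = 0.00048), and it was at 24.3 ± 0.539 CPM with GSK715 and 21.5 ± 1.11 CPM with DMSO. CKS1B, its cofactor, rose in HCT116 with GSK025 (0.41) and GSK715 (0.50) and fell in WiDr (-1.21).

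All 10 markers of proliferation and mitosis fell with GSK715 in HCT116 (median log2FC -0.45) and in WiDr short reads (median -1.36), beside 24.2% and 32.2% of all genes. With GSK025 5 fell and 2 rose, PLK1 and CCNF. In ONT 1 of 10 passed, CCNB2, which was lower. MKI67 had a log2FC of -0.70 with GSK025 and -0.79 with GSK715 in HCT116. In bulk RNA, fewer cells in a phase of the cycle and less RNA per cell cannot be told apart, and the part of these markers in the changes of the 10 genes was not tested.

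**Figure D4:**
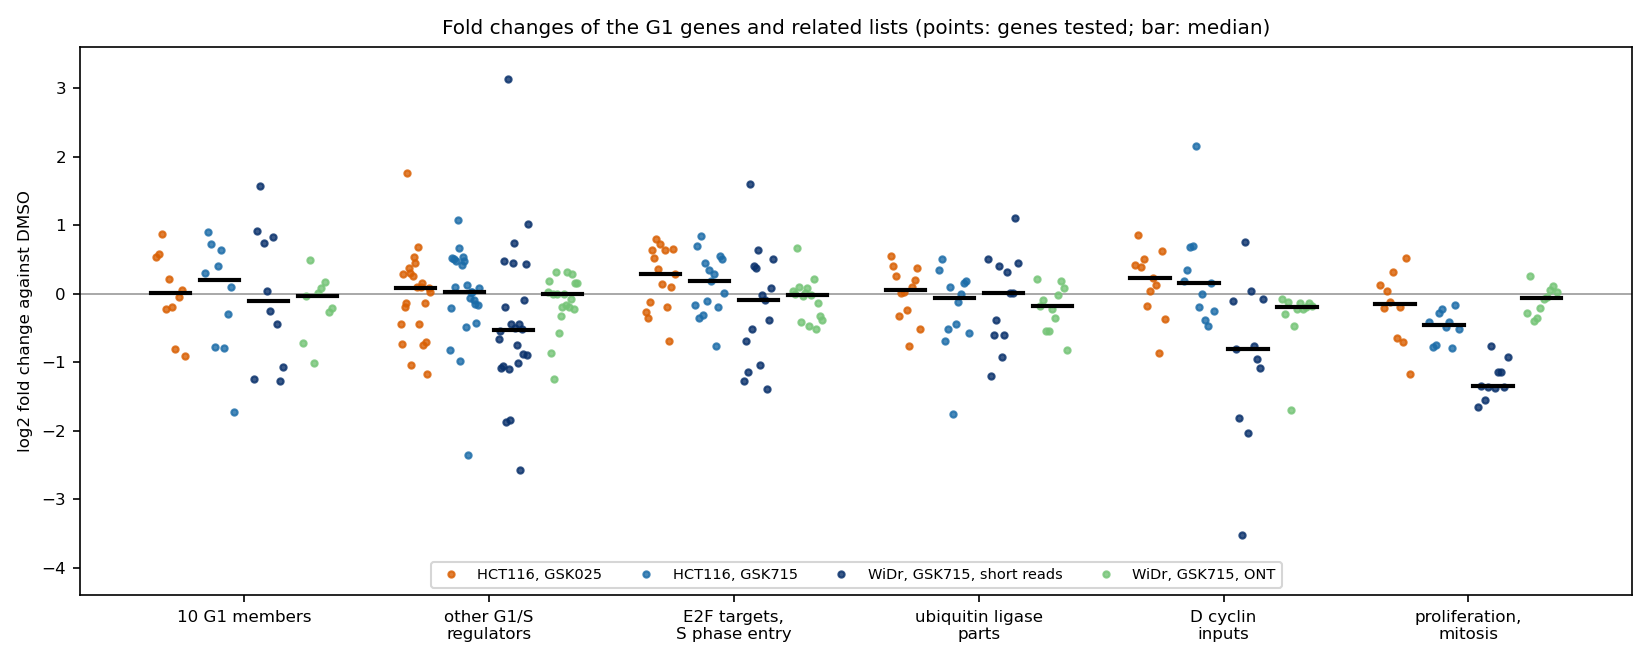
Log2 fold changes against DMSO (y axis) of single genes (points) in the 10 G1 genes and 5 related lists (x axis), coloured by comparison, with the median of the genes tested as a bar. The bars for proliferation and mitosis markers lie at -0.45 in HCT116 and -1.36 in WiDr short reads with GSK715, and at -0.061 in ONT.

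Genes with the pattern most like that of a member were taken as the nearest in Euclidean distance over the 3 short-read log2FC values, among 9794 genes at a mean of 5 CPM or more. NDRG1 was nearest to CCNE1 (distance 0.0773), with log2FCs of 0.82 and 0.72 in HCT116 with GSK025 and GSK715 and 1.62 in WiDr. RNPC3 was nearest to CDK6 (0.136), with -0.78, -0.69 and 0.74. ESCO2 was nearest to RB1 (0.171), with -1.05, -1.64 and -1.12. The HCT116 values share their DMSO libraries. Across genes at 5 CPM or more, log2FC and exonic length had a Spearman rho of -0.301 with GSK025 and -0.293 with GSK715 in HCT116 and of -0.063 in WiDr short reads, a description across genes that are not independent.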

How the data were processed

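RNA of HCT116 and WiDr cells was measured in 19 libraries, in groups given by the labels' line, compound and method. Per the labels' protocols, poly(A) RNA was read in pairs on an Illumina NovaSeq and full-length cDNA on an ONT PromethION. The authors deposited raw gene counts for the short reads and estimated counts (expected counts) for ONT, which were rounded here. The submitters' processing notes name GRCh38 and 6 tools (minimap2, Salmon, HISAT2, StringTie, cutadapt, DESeq2), without versions or roles. The annotation release and strand setting are not given in the sources used here. Columns named NC in the WiDr tables were taken as DMSO, the one control the labels give.

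Symbols, coordinates and exonic lengths came from a gene name table and GENCODE 29. In R 4.3.3, edgeR 4.0.16 was used: filterByExpr (minimum count 10, minimum total 15), TMM scaling, the quasi-likelihood test and Benjamini-Hochberg adjustment over all genes tested, at 0.05. The HCT116 fit held all 9 libraries, and interactions were fitted over shared gene IDs. The fit was also run on counts simulated from its own model, which cannot show whether that model suits these data. Alternatives were RLE factors, library totals, no count filter, DESeq2 1.42.0, a replicate block, each library left out, glmTreat at 1.5-fold, an exonic length offset and only the groups compared. Named list genes are from the 3 with the smallest adjusted p per list, direction and comparison. Values in the other comparisons are given for some of them only. MYC, RBL2, E2F5, SKP2 and CKS1B follow that rule, and CCND2, LTO1, INTS8 and TSPAN31 were added because a member's value bears on them. Members and lists were chosen with earlier results of these data known. The spread behind each p is that between libraries and may be technical. Counting error is largest in ONT, with 2 to 260 reads per member.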

Additional observations from a re-analysis of the deposited data

Results flagged for a closer look

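The response to GSK715 differed between WiDr and HCT116 by the interaction test in 8 of the 10 genes, beside 46.7% of all 21791 genes tested. The difference of log2 fold change, WiDr minus HCT116, was -1.62 for CCND1, -1.45 for CDKN2C, -0.96 for CDK4 and -0.44 for CDK2. It was 1.55 for CDK6, 1.45 for CCNE2, 0.78 for CCNE1 and 0.59 for RB1. CCNE1 did not pass with the exonic length offset (0.29, edgeR adjusted p = 0.0585). CDK2 did not pass with library totals as the scale (-0.083, edgeR adjusted p = 0.462). In CCND1, CCNE2, CDK4 and CDK6 the response had opposite signs in the short reads of WiDr and HCT116, and each passed in both, although CCNE2 in HCT116 did not pass without DMSO replicate 3 (edgeR adjusted p = 0.0814) or GSK715 replicate 2 (0.0615). In ONT libraries of WiDr, where neither passed, CCNE2 was at -1.02 and CDK4 at 0.08. RB1 fell in both lines, less far in WiDr.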

How the results depend on the processing

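Of 1090 member values recomputed under the alternatives, 988 kept direction and side of the threshold, 58 kept direction but no longer passed, 5 newly passed and 39 changed sign; the 1 called value among those 39 is given below, and the others did not pass. Against a 1.5-fold change (glmTreat), 3 members and 1782 of all genes passed for GSK025 and 3 and 2375 for GSK715 against DMSO in HCT116, and 2 and 2011 for GSK715 against GSK025. In WiDr 6417 genes passed in short reads, and 0 members and 238 genes in ONT. For the difference between lines it was 5 members and 5205 genes, and between methods 1 and 1778. In ONT 0 members passed without a count filter (251 genes) or with DESeq2 (274 genes). There edgeR's unadjusted p was 1.2e-05 for CCND1 and 0.009 for CCNE2, and above 0.05 for the other members tested. Scaled by library totals, 4 members and 4878 of all genes differed between methods. glmTreat is stricter by construction, and the cause of the other changes was not tested.

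Library totals changed the sign of CDKN2C with GSK025 (-0.0085) and GSK715 (-0.065) against DMSO in HCT116 and of CDK6 (-0.081) and CDKN2C (-0.057) for GSK715 against GSK025. They did so for CDK2 in ONT (-0.048), for CCND3 (0.30, adjusted p = 0.0084 by edgeR) and CDKN1B (0.13) between lines, and for CDK2 (-0.20) and CDKN2C (-0.094) between methods. The split over all genes then was 2994 higher and 6343 lower for GSK715 in HCT116, 592 and 991 in ONT, 7321 and 3203 between lines, and 1802 and 3076 between methods, in place of 4372 and 4785, 681 and 716, 5058 and 5129, and 2697 and 2090. The exonic length offset changed the sign of CDKN1B with GSK025 (0.048), CDK6 for GSK715 against GSK025 (-0.013) and CDK2 in WiDr short reads (-0.14). It was not run on ONT alone.

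With each library left out in turn, CDKN2C ranged from -0.097 to 0.17 with GSK025, from -0.06 to 0.20 with GSK715 and from -0.044 to 0.16 for GSK715 against GSK025, where CDK6 ranged from -0.07 to 0.083. CDK2 in WiDr short reads ranged from -0.0095 to 0.085. In ONT, CCND3 ranged from -0.17 to 0.088, CDK2 from -0.084 to 0.095, CDK4 from -0.035 to 0.21, CDK6 from -0.025 to 0.39, CDKN1B from -0.53 to 0.088 and RB1 from -0.53 to 0.051; 0 to 1 members and 464 to 1058 genes passed, and the lone library was assumed to vary like the other group. Between lines CCND3 ranged from -0.056 to 0.035. Between methods CDK2 ranged from -0.098 to 0.089, CDKN1B from -0.034 to 0.59 and CDKN2C from -0.37 to 0.79, with 3 to 7 members and 3485 to 4775 genes passing.

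Replicate numbers are shared between groups, but the deviations of same-numbered short-read libraries correlated at -0.101 to 0.079, so the numbers were not taken as pairs. With the replicate block, 7, 9 and 6 members passed in the HCT116 comparisons, beside 8486, 8881 and 8411 of all genes. In WiDr short reads 9 members and 12351 genes passed, and in ONT 1 member and 1706 genes. Between lines 8 members and 9789 genes passed. Between methods 6 members and 4384 genes passed, and CDK6 was lost there (edgeR adjusted p = 0.0527). The ONT values rest on 2 libraries per group and 2 to 260 reads per member.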
